A study of Macaca mulatta with 8 samples.

Results

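Plasma cells are the antibody factories of the immune system, and the genes described here are 10 that serve their secretory program or the B cell state from which they arise: JCHAIN, MZB1, DERL3, XBP1, PRDM1, IRF4, SDC1, TNFRSF17, CD79A and MS4A1. They were picked by symbol among the 26533 features counted in 8 single-cell RNA-seq libraries of macaque retina, and all 10 were present. The choice was made with earlier results of these data known and for the pattern described below (high counts in plasma and B cells, and JCHAIN counts elsewhere), so their levels in those cells are a description and carry no test.

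The libraries came from the eyes of 2 wild-type rhesus macaques (Macaca mulatta), NHP1 (male, 5 years old) and NHP2 (male, 6 years old), harvested after vitrectomy and subretinal delivery of adeno-associated virus (AAV) vectors. NHP1 had been given AAV2-CAG-hRPE65, human RPE65 behind the ubiquitous CAG promoter, and its 2 libraries used here, 1 of each eye, are both labeled uninjected. NHP2 had been given AAV8-GRK1-hRPGR (codon-optimized human RPGR) and AAV8-GRK1-mScarlet (a red fluorescent reporter), both behind the photoreceptor promoter GRK1 and in separate blebs of each eye, and an uninjected area, an hRPGR bleb and an mScarlet bleb of each eye were sequenced. All 4 eyes had subtenon triamcinolone, a corticosteroid, and the left eyes also had repeated intravitreal adalimumab, an antibody against TNF, so the 2 libraries of a group are the right and left eye of 1 animal under different drug regimens. No animal was left without vector, and any p-value below measures the spread between the eyes of NHP2.

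An activated B cell that becomes a plasma cell shuts down much of its B cell program and enlarges its endoplasmic reticulum to fold, assemble and export immunoglobulin. The transcription factors IRF4 and PRDM1 (BLIMP1) drive that switch, and XBP1, the transcription factor of the unfolded protein response, expands the secretory apparatus. JCHAIN encodes the joining chain that links immunoglobulin M pentamers and immunoglobulin A dimers, MZB1 is an endoplasmic reticulum protein that aids immunoglobulin heavy chain assembly, and DERL3 takes part in the export of misfolded proteins from that compartment for degradation. SDC1 (CD138) and TNFRSF17 (BCMA, a receptor for the survival factors BAFF and APRIL) mark plasma cells at the surface, CD79A is a signaling chain of the B cell receptor, and MS4A1 (CD20) marks B cells and is lost on the way to plasma cells. B-lineage cells are not among the resident cells of a healthy retina.

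On the rhesus build Mmul_10, RefSeq places JCHAIN at chr5:63087828-63120109 on the plus strand, MZB1 at chr6:136790620-136792908 on the minus strand, XBP1 at chr10:22747004-22754139 on the plus strand and DERL3 at chr10:27996642-28001521 on the minus strand. PRDM1 lies at chr4:67095643-67119700 and IRF4 at chr4:169701165-169715813, both on the minus strand. SDC1 lies at chr13:88784158-88809937, TNFRSF17 at chr20:11938898-11941907 and CD79A at chr19:41019374-41024437, all on the plus strand, and MS4A1 at chr14:13717471-13733388 on the minus strand. TNFRSF17 and MS4A1 each overlap 1 other annotated gene and DERL3 overlaps 2, among them SMARCB1, so UMIs of these 3 genes could be shared with a neighbor. No annotated gene overlaps JCHAIN, whose nearest neighbor, UTP3, is 1296 bases away on the opposite strand.

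The 250 bases before the annotated start of JCHAIN (the RefSeq transcript starting at position 63108681), MZB1, XBP1 and DERL3 are shown because these 4 genes, the joining chain and the folding machinery, were detected together in most plasma cells. They are chr5:63108431-63108680 (JCHAIN, plus strand), chr6:136792909-136793158 (MZB1, minus strand), chr10:22746754-22747003 (XBP1, plus strand) and chr10:28001522-28001771 (DERL3, minus strand) on Mmul_10, read 5′ to 3′ on the gene's own strand, and capitals mark each CCACG, on either strand, the last 5 letters of the endoplasmic reticulum stress element.
JCHAIN: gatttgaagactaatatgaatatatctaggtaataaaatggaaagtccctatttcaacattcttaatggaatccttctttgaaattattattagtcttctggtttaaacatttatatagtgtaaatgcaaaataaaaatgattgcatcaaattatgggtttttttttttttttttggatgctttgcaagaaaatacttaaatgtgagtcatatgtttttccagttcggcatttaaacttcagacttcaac
MZB1: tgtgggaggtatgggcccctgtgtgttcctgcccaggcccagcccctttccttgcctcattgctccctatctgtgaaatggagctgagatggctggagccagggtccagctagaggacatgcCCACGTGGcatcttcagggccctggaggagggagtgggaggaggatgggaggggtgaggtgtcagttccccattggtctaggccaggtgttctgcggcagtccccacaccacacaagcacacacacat
XBP1: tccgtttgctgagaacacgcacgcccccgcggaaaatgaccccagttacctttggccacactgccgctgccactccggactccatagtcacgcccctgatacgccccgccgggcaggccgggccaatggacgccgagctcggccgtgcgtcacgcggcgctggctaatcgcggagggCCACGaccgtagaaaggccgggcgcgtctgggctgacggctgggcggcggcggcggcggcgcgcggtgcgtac
DERL3: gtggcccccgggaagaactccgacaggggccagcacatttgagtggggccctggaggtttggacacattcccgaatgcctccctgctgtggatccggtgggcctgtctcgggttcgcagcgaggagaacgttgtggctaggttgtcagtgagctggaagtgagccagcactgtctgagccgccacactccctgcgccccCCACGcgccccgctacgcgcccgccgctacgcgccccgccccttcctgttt
Those letters were found in the promoters of 6 of the 10 genes (DERL3, IRF4, MZB1, SDC1, TNFRSF17 and XBP1), against 33.9% of all 20776 promoters of the same length. In MZB1 they fall on both strands and overlap, giving CCACGTGG from 128 to 121 bases before the start, in XBP1 they lie 73 to 69 bases before it and in DERL3 51 to 47 bases before it. The JCHAIN window shown holds none and has a GC content of 26.4%, against 60.8% for MZB1, 66.8% for DERL3 and 71.6% for XBP1. The whole endoplasmic reticulum stress element, of which those letters are only the end, was in none of the 10 promoters (0.0626% of all promoters). Nor did any of the 10 hold the further motifs searched, ERSE-II (0.0433%) and EICE (2.11%). JCHAIN has 3 annotated starts, and the counts over the 10 genes and over all promoters used the most upstream start of each gene. For JCHAIN that is position 63087828, whose window has a GC content of 45.2% and also lacks CCACG. None of the 10 promoters holds the octamer ATGCAAAT (1.55% of all promoters), the XBP1 core TGACGTGG (0.534%) or the cyclic AMP response element TGACGTCA (1.46%), each searched on both strands, and such a match or its lack is a description of these letters only.

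The libraries held 90634306 to 146519011 UMIs (unique molecular identifiers, 1 per captured RNA molecule) each, and 83192 cells were kept, 8831 to 13261 per library. Levels are given as CPM, the UMIs of a gene for every 1000000 UMIs of the cells summed. A molecule is counted once from its 5′ end, so CPM needs no scaling for gene length, and intervals on CPM or on shares of cells cover counting error only. In 3 libraries the vector transcripts went against the label: in the uninjected area of the left eye of NHP1, 49.5% of rods held huRPE65 UMIs, and in the uninjected area of the right eye of NHP2, 19.0% of rods held coRPGR UMIs. The third was the mScarlet bleb of the right eye, where 63.4% of rods held mScarlet UMIs and 4.32% held coRPGR UMIs. Cells that met no class made up 20.7% of all, from 6.70% to 39.0% of a library, with the largest share in the hRPGR bleb of the right eye. Of 529 plasma-like and B-like cells, 59 (11.2%) carried a barcode also kept in another library, against 9.41% of all kept cells, and in none was the other cell plasma-like or B-like.

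Plasma-like and B-like cells were named from other genes, with the 10 left out of the clustering. Rods, cones and the other classes below are likewise clusters named from marker genes. Of the immunoglobulin constant genes with a symbol in the files, plasma-like cells had 5505 CPM of IGHM, 9621 of IGKC and 0.904 of IGHE, and they had 438 CPM of SEC11C. CD38 and FCRL5, also listed as plasma cell markers, were higher in B-like cells (218 and 265 CPM) than in plasma-like cells (47.6 and 28.5 CPM). B-like cells had 869 CPM of BANK1, 475 of VPREB3 and 124 of PAX5, against 44.6, 2.71 and 0.633 in plasma-like cells.

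Plasma-like cells were found in 7 of the 8 libraries and were numerous in 3 of them, all vector blebs of NHP2. There were 250 in the mScarlet bleb of the left eye, 2.44% of its cells (exact 95% interval 2.15 to 2.76), and 85 in that of the right eye, 0.963% (0.770 to 1.19). The hRPGR bleb held 78 in the right eye, 0.687% (0.543 to 0.857), and 5 in the left eye, 0.0538% (0.0175 to 0.125). The uninjected areas of NHP2 held 1 on the right (0.0106%) and 3 on the left (0.0275%), and NHP1 held 4 in the left eye (0.0302%) and 0 of 9881 cells in the right, which allows a share of up to 0.0304% by the limit of 3 counts and 0.0373% by the exact 95% interval.

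The mean share of plasma-like cells was 1.70% ± 1.04 (SD, n = 2 eyes) in the mScarlet blebs, 0.370% ± 0.448 in the hRPGR blebs and 0.0191% ± 0.0119 in the uninjected areas of NHP2. The eyes did not take the same order, since the higher share was in the right eye for hRPGR and in the left eye, the one given adalimumab, for mScarlet. B-like cells were fewer, 103 in all, with 58 (0.566%) and 33 (0.374%) in the left and right mScarlet blebs, 10 (0.0881%) and 1 in the right and left hRPGR blebs, 1 in the uninjected area of the left eye and 0 in the other 3 libraries. T/NK-like cells made up 0.245% and 0.302% of the right and left uninjected areas of NHP2 and 2.70% and 4.19% of the mScarlet blebs, and myeloid-like cells 0.735% and 0.632% against 5.05% and 3.71%. In the right and left hRPGR blebs T/NK-like cells made up 0.925% and 0.366% and myeloid-like cells 2.77% and 1.19%. Captured cells from a tissue punch do not give the number of cells in the tissue.

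**Figure D1:**
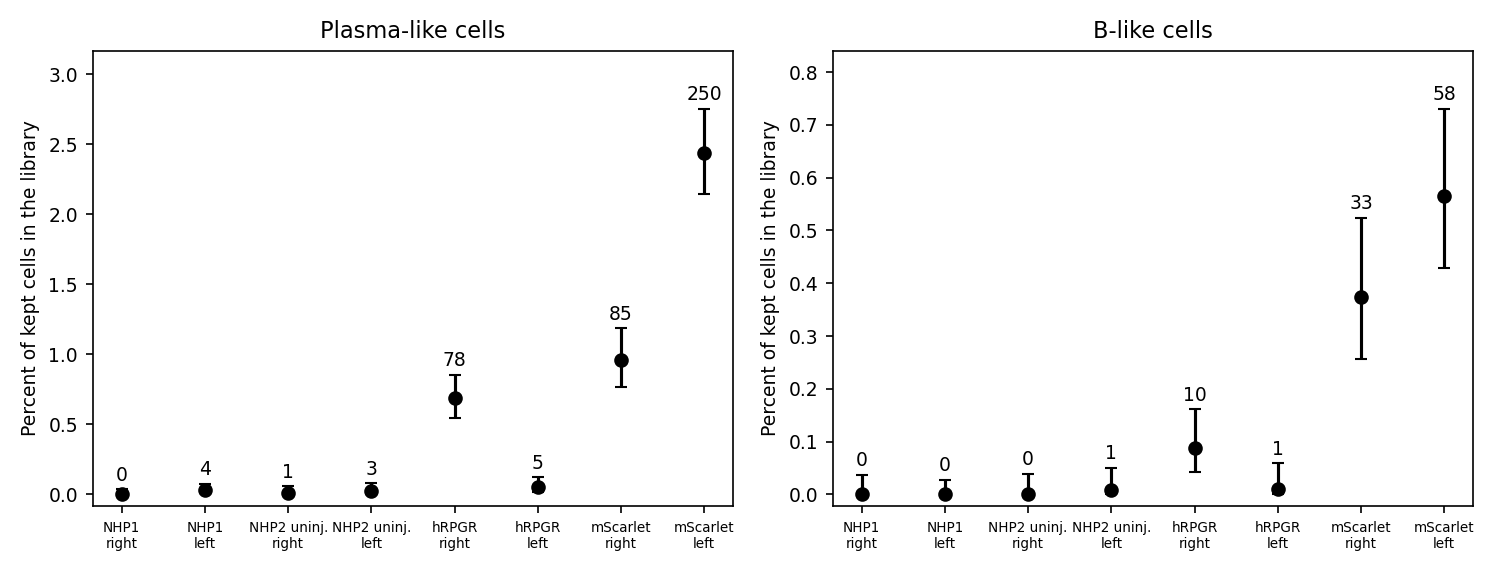
Plasma-like (left) and B-like (right) cells as a percent of the kept cells of each of the 8 libraries, with exact 95% binomial intervals and the number of cells above each point. Shares sit highest in the mScarlet blebs of both eyes (0.963% and 2.44% plasma-like) and in the hRPGR bleb of the right eye (0.687%), and at or below 0.0538% plasma-like elsewhere.

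JCHAIN was the most abundant of the 10 genes by far. Summed over all plasma-like cells it reached 28278 CPM, against 1413 CPM for MZB1, the next in order. By library it stood at 45056 CPM (44762 to 45352) in the 78 cells of the right hRPGR bleb, 23928 (23717 to 24141) in the 85 of the right mScarlet bleb and 25274 (25154 to 25394) in the 250 of the left mScarlet bleb. The libraries with 1 to 5 plasma-like cells spread more widely. They had 69569 CPM in the single cell of the right uninjected area, 15382 in the left hRPGR bleb, 7588 in the left uninjected area and 1883 in the left eye of NHP1. In the left hRPGR bleb 1 of the 5 cells held 978 of 1058 JCHAIN UMIs, and the median cell had 769 CPM. The right hRPGR bleb was thus the highest of the 3 well-filled libraries, and the 2 mScarlet blebs were close to each other.

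Single cells varied much more than these sums. In the right hRPGR bleb the median cell had 45400 CPM of JCHAIN and the 10th and 90th percentiles were 7264 and 73661. In the right mScarlet bleb the median was 17408 (4791 to 47614) and in the left one 20869 (2891 to 64611). Of all 426 plasma-like cells, 317 (74.4%) had at least 10000 CPM, 77 had 1000 to 10000 and 32 had less than 1000, and the highest reached 109283 CPM.

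The folding and degradation partners varied less between these libraries than JCHAIN did. MZB1 was at 1242 CPM in the right hRPGR bleb and at 1278 and 1521 CPM in the right and left mScarlet blebs, and DERL3 at 1144, 902 and 949 CPM. XBP1, which controls many genes of this machinery, was at 782, 1137 and 1016 CPM in the same order. In the hRPGR library, where JCHAIN was highest, XBP1 was the lowest of the 3 libraries and DERL3 the highest.

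The transcription factors PRDM1 and IRF4 were lower than the secretory genes, at 257 and 160 CPM over all plasma-like cells. PRDM1 stood at 254 CPM in the right hRPGR bleb, 321 in the right and 239 in the left mScarlet bleb, and IRF4 at 176, 199 and 144 CPM. The surface receptor TNFRSF17 reached 320, 215 and 220 CPM, and SDC1, the classical plasma cell antigen, only 61.3, 53.2 and 60.4 CPM. CD79A persisted in plasma-like cells at 150, 337 and 296 CPM, lowest in the hRPGR library. MS4A1 was at 0 in all of them but 1 cell of the left mScarlet bleb, which held 13 UMIs (1.92 CPM of that library).

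B-like cells were led by other genes. Over all 103 cells MS4A1 stood at 847 CPM and CD79A at 780, followed by IRF4 at 197, DERL3 at 173 and JCHAIN at 165. In the 3 libraries with at least 10 B-like cells, MS4A1 was at 864 CPM in the right hRPGR bleb, 638 in the right and 1044 in the left mScarlet bleb, and CD79A at 855, 685 and 913 CPM. JCHAIN, at 745, 88.5 and 44.6 CPM, was set in the hRPGR library by 1 cell that held 69 of its 81 UMIs, and PRDM1, at 386, 9.31 and 11.9 CPM, by 1 cell that held 41 of 42. IRF4 was at 478, 186 and 137 CPM and no B-like cell held an SDC1 UMI.

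**Figure D2:**
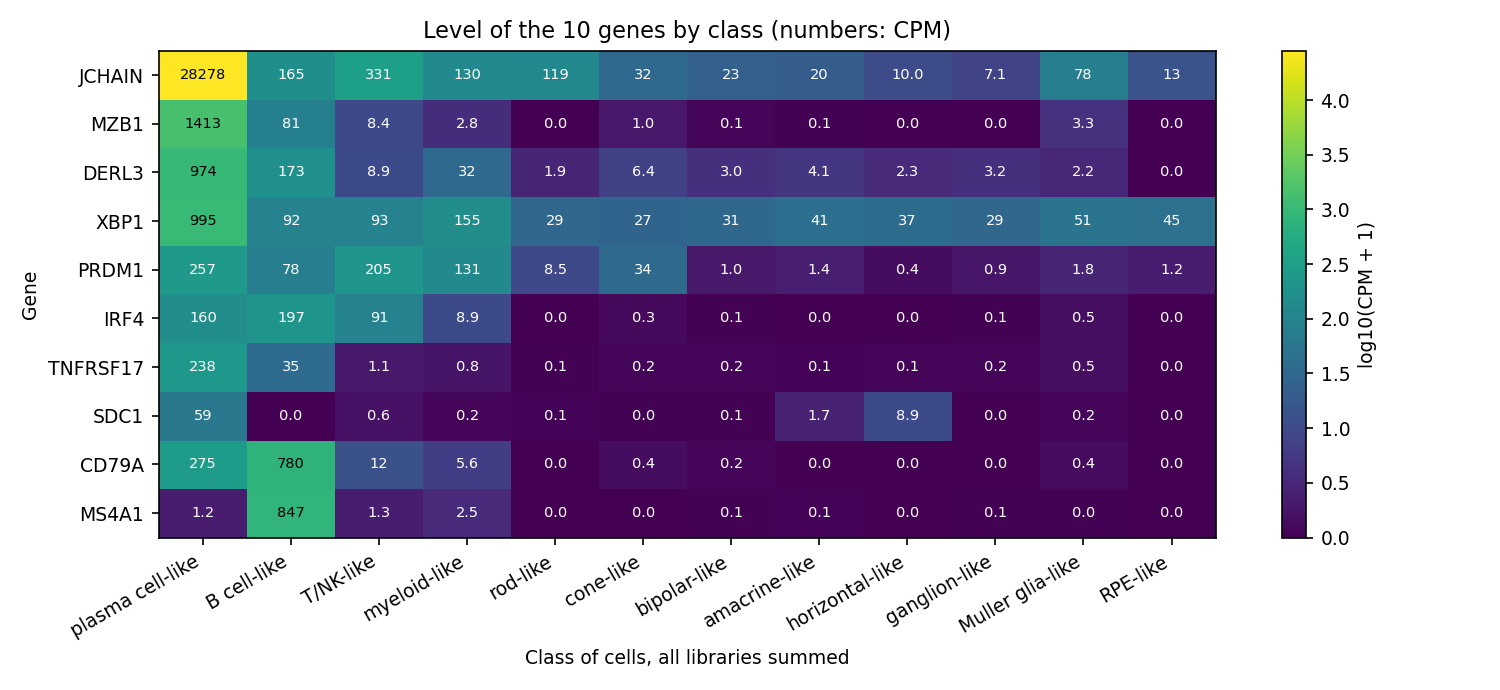
Heatmap of the level of the 10 genes (rows) in 12 cell classes (columns), cells of all 8 libraries summed. Color gives log10(CPM + 1) and the number in each box the CPM. JCHAIN is the highest gene in plasma-like cells (28278 CPM) and still reaches 119 CPM in rods, while MS4A1 is highest in B-like cells (847 CPM) and at 1.18 CPM in plasma-like cells.

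Most plasma-like cells held the whole set of secretory transcripts. JCHAIN, MZB1, XBP1 and DERL3 were detected together in 393 of 426 plasma-like cells (92.3%) and in 3 of 103 B-like cells, and the median cell held UMIs of 8 of the 10 genes, against 4 in B-like cells. MS4A1 separated them in the other direction, with 1 of 426 plasma-like against 93 of 103 B-like cells (90.3%). CD79A was detected in 387 plasma-like (90.8%) and 96 B-like cells (93.2%). Its level was 275 against 780 CPM, and at the equal depth used below it was seen in 29.1% against 61.2%. TNFRSF17 was detected in 371 plasma-like cells (87.1%) and 19 B-like cells (18.4%), and SDC1 in 275 (64.6%) and none. There were 11 plasma-like cells without a UMI of any of the 10 genes.

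Depth differed between the classes, with a median of 26134.5 UMIs per plasma-like cell, 5421 per B-like cell and 5802 per rod, so each cell was also thinned to 1500 UMIs. At that depth JCHAIN was seen in 93.2% of plasma-like cells (94.8% before thinning), MZB1 in 74.9%, XBP1 in 69.0%, DERL3 in 68.5%, TNFRSF17 in 29.3%, CD79A in 29.1%, PRDM1 in 28.4%, IRF4 in 18.5% and SDC1 in 6.57%. In B-like cells MS4A1 was seen in 62.1%, CD79A in 61.2%, DERL3 in 28.2%, IRF4 in 23.3% and MZB1 in 12.6%. JCHAIN was seen in 3.88% of B-like cells, below the 14.9% of rods, a cell type that makes no immunoglobulin, and no expression is read from it.

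Plasma-like cells whose IGHM took at least 1% of their UMIs had more JCHAIN. There were 43 of them, with 58912 CPM of JCHAIN, against 24680 CPM in the other 383. The same order was seen within each of the 3 well-filled libraries: 59120 against 37551 CPM in the right hRPGR bleb (25 and 53 cells), 53699 against 22274 in the right mScarlet bleb (4 and 81) and 60065 against 23303 in the left (14 and 236). Such cells made up 32.1% of the plasma-like cells of the right hRPGR bleb, 4.71% of the right and 5.60% of the left mScarlet bleb. IGKC took at least 1% of the UMIs in 145 cells (34.0%), with shares of 19.2%, 51.8% and 32.8% in the same order of libraries. The cells with IGKC had 31243 CPM of JCHAIN against 26789 in the others, and the order was not the same in each library, with 55909 against 42356 CPM in the right hRPGR bleb, 22775 against 25457 in the right mScarlet bleb and 31876 against 22324 in the left. TNFRSF17 was also higher in the cells with IGHM, at 395 against 219 CPM, and CD79A was lower, at 165 against 287 CPM. Both genes had these orders in each of the 3 libraries except CD79A in the right hRPGR bleb, at 155 and 148 CPM.

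A smaller set of 45 plasma-like cells held at least 2 UMIs of the cell cycle genes MKI67, TOP2A and RRM2. They had 9573 CPM of JCHAIN, against 30096 in the other 381, with 12278 against 25223 CPM in the right mScarlet bleb (12 and 73 cells) and 9255 against 27244 in the left (29 and 221). TNFRSF17 was at 119 against 249 CPM, DERL3 at 539 against 1016 and SDC1 at 27.5 against 61.9, and CD79A at 338 against 268 CPM. CD79A took opposite orders in the 2 mScarlet blebs, 264 against 346 CPM on the right and 373 against 286 on the left, and so did MZB1, 1069 against 1301 and 1657 against 1505 CPM. The other 4 cycling cells lay in the hRPGR blebs and lacked most plasma cell transcripts: the 3 of the right eye, with a median of 1820 UMIs, held no JCHAIN, MZB1 or DERL3 UMI, and the 1 of the left eye had 40.5 CPM of JCHAIN and 0 of MZB1. The 13 MS4A1 UMIs of the plasma-like cells all lay in a cell of this set. These splits used the cells' own counts and are descriptions.

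**Figure D3:**
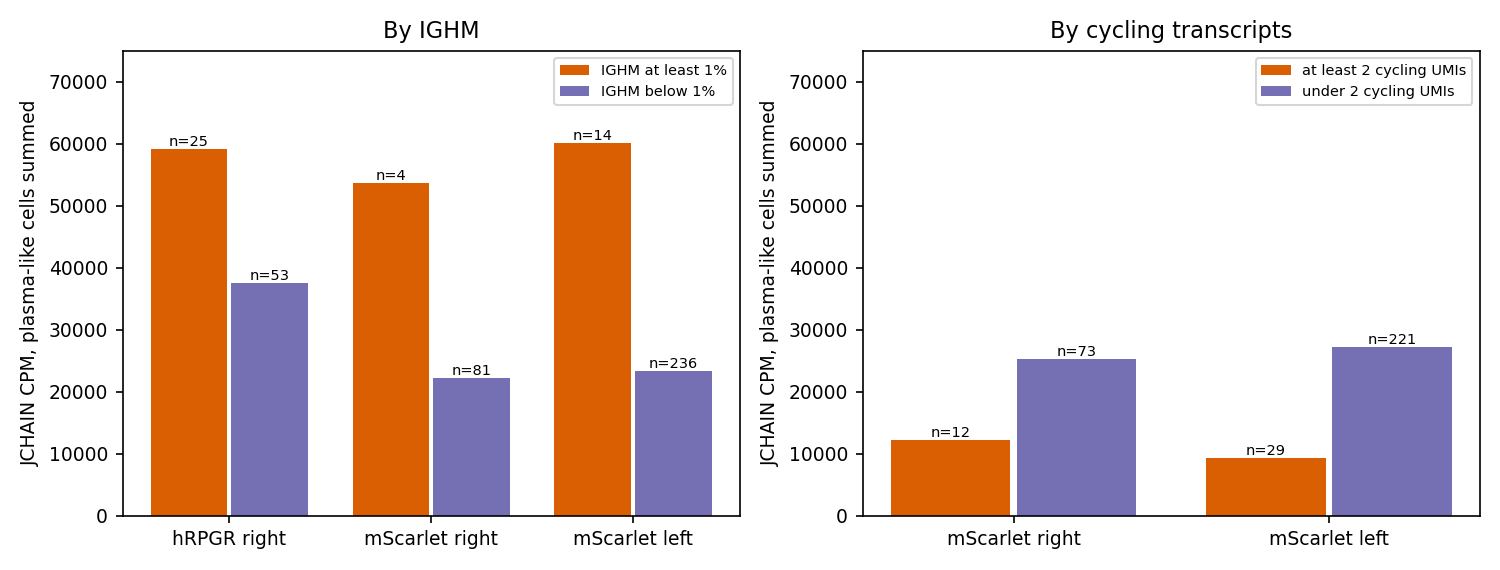
JCHAIN level (CPM) of plasma-like cells split by whether IGHM took at least 1% of their UMIs (left; right hRPGR, right mScarlet and left mScarlet blebs) and by whether they held at least 2 UMIs of MKI67, TOP2A and RRM2 (right; right and left mScarlet blebs). Numbers above the bars are cells. The bars of cells with IGHM stand at 53699 to 60065 CPM, above their partners in all 3 libraries, and those of the cycling cells below theirs in both.

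The next question was where the UMIs of these genes lay in each library. MZB1 lay mostly in plasma-like cells, which in the 7 libraries that had any held 80.5% to 100% of the MZB1 UMIs of the whole library, every barcode included. The same held for TNFRSF17 in the 3 well-filled libraries, with 89.5% in the right hRPGR bleb, 93.0% in the right and 94.1% in the left mScarlet bleb, and for DERL3, with 81.6%, 77.3% and 86.9%. SDC1 lay there with 71.3%, 83.2% and 84.3%, and IRF4 with 64.3%, 64.1% and 68.7%.

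The other genes were shared with other cells. CD79A UMIs lay in plasma-like cells with 67.2%, 75.9% and 81.3% and in B-like cells with 20.9%, 16.2% and 12.5%, in the same order of libraries, and MS4A1 in B-like cells with 78.3%, 84.6% and 88.6%. XBP1, at 28.8%, 40.3% and 60.8% in plasma-like cells, and PRDM1, at 20.8%, 25.7% and 1621 of 4052 UMIs, came in good part from cells outside the B lineage. Over all 10 genes, plasma-like and B-like cells held 83.7% of the UMIs found in kept cells of the right hRPGR bleb and 16.1% in the left, 79.6% and 87.9% in the right and left mScarlet blebs, 21.0% and 12.3% in the uninjected areas, and 0 and 5.76% in the right and left eye of NHP1.

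For JCHAIN the libraries fell far apart. Plasma-like cells held 80.2% of its 111684 UMIs in the right hRPGR bleb and 79.4% of 61693 and 86.5% of 197823 in the right and left mScarlet blebs. In the left hRPGR bleb they held 17.2% of 6158 UMIs, in the uninjected areas 23.7% and 9.56%, and in the left eye of NHP1 1.87% of 8995. In those libraries, and in the right eye of NHP1 with its 1957 UMIs and no plasma-like cell, rods held 38.9% to 44.7%.

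**Figure D4:**
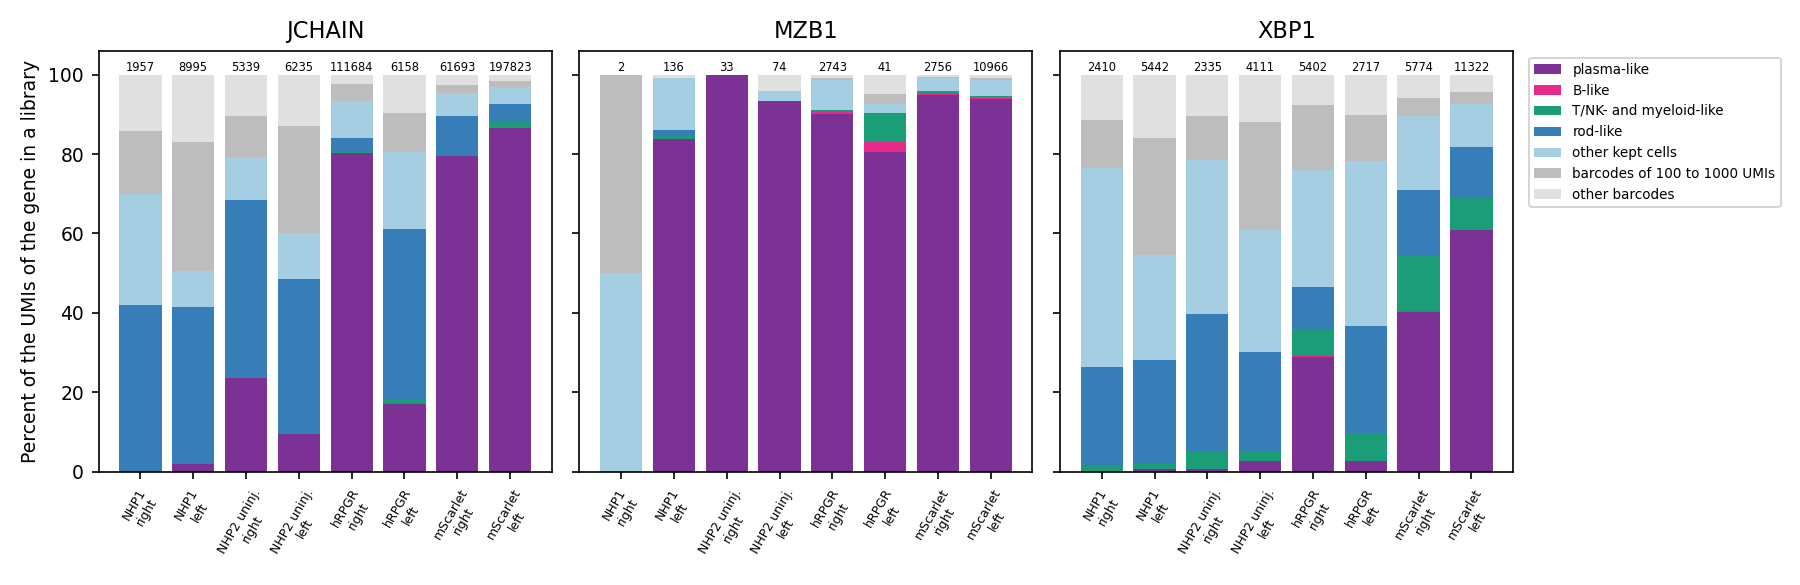
Percent of all JCHAIN, MZB1 and XBP1 UMIs of each library that lay in plasma-like cells, B-like cells, T/NK-like and myeloid-like cells, rods, other kept cells, barcodes of 100 to 1000 UMIs and the remaining barcodes, with the library's UMIs of the gene above each bar. Plasma-like cells hold 80.5% to 100% of MZB1 in the 7 libraries with such cells, but of JCHAIN 79.4% to 86.5% in 3 libraries and 23.7% or less in the others.

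Among the other immune cells, PRDM1, IRF4 and XBP1 were also counted. T/NK-like cells had 205 CPM of PRDM1, 91.3 of IRF4 and 92.6 of XBP1, and thinned to 1500 UMIs 23.6%, 8.99% and 12.9% of them held a UMI. Myeloid-like cells had 155 CPM of XBP1 and 131 of PRDM1, and 8.94 of IRF4. In barcodes of 100 to 1000 UMIs the libraries ran from 2.29 to 13.3 CPM for PRDM1, 8.31 to 37.7 for XBP1 and 0 to 0.478 for IRF4, and in those of 10 to 100 UMIs from 0 to 58.0, 11.9 to 72.5 and 0 to 11.6. The IRF4 level of myeloid-like cells lay above the range in barcodes of 100 to 1000 UMIs. It lay within the last range, whose top was 1 UMI in the right mScarlet bleb, and no expression is read from it. PRDM1, a regulator of effector T cells and of photoreceptor fate as well as of plasma cells, was also at 33.6 CPM in cones, against 8.47 in rods. The rod level lay within its range in both sets of barcodes, and no expression is read from it. The cone level lay above the range in barcodes of 100 to 1000 UMIs. It lay within that of 10 to 100, whose top of 58.0 CPM came from 8 UMIs in the left mScarlet bleb. The part that free RNA has in the cone counts was not tested. SDC1 was highest outside the B lineage in horizontal cells, at 8.89 CPM.

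JCHAIN counts in other classes often came from a handful of barcodes. In the T/NK-like cells of the left mScarlet bleb, 1 cell held 1494 of 1538 JCHAIN UMIs, and without it the level went from 659 to 19.1 CPM. In myeloid-like cells of that library 4 cells held 1478 of 1546 (321 to 14.4 CPM), and in Müller glia 2 cells held 1690 of 1822 (325 to 24.0 CPM) and most of the MZB1, of which 6 of 138 UMIs remained without them. In Müller glia of the right hRPGR bleb, 1 cell held 1260 of 1419 (248 to 28.1 CPM). Barcodes marked as doublets of 2 cells had been removed before the classes were named, so no cell here could carry that mark. The part of doublets in these counts was not tested.

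In rods JCHAIN was spread thinly over many cells, with at most 16 UMIs in any of 42323. It stood at 29.9 CPM in the right and 79.7 in the left eye of NHP1, at 64.5 and 63.2 CPM in the right and left uninjected areas of NHP2, at 172 and 89.2 CPM in the hRPGR blebs and at 218 and 277 CPM in the mScarlet blebs. The mScarlet blebs were the highest. Thinned to 1500 UMIs, 8.32% and 8.39% of rods in the uninjected areas held a UMI, 22.4% and 12% with hRPGR, and 27.0% and 32.5% with mScarlet. Means were 63.8 ± 0.938 CPM (SD, n = 2 eyes), 131 ± 58.7 and 248 ± 42.4.

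Relative to JCHAIN, rods held far less MZB1 than plasma-like cells did. Over all libraries rods held 31179 JCHAIN UMIs and 8 of MZB1. Plasma-like cells held 27.6 MZB1 UMIs per 1000 of JCHAIN in the hRPGR bleb of the right eye, 31.2 in its left counterpart, and 53.4 and 60.2 in the right and left mScarlet blebs, whereas rods held 0 to 0.561 in any library. The MZB1 UMIs of rods were 0 and 0 in the right and left hRPGR blebs and 2 and 4 in the mScarlet blebs. The plasma-like ratio of the left hRPGR bleb rests on 5 cells, of which 1 held 978 of 1058 JCHAIN UMIs. The source of the rod counts was not tested. DERL3 and XBP1 did not follow MZB1. Rods held 16.7 and 11.4 DERL3 UMIs per 1000 of JCHAIN in the right and left hRPGR blebs and 12.4 and 19.5 in the mScarlet blebs, against 25.4, 37.8, 37.7 and 37.6 in plasma-like cells, and XBP1 was above the plasma cell ratio, at 142 to 275 against 17.4 to 71.8. The rods of the left mScarlet bleb also held 144 UMIs of IGHM and 60 of IGKC, against 9091 of JCHAIN.

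Free RNA was read from barcodes of 100 to 1000 UMIs, below the minimum of 1500 UMIs for a cell. JCHAIN was there at 8.76 and 68.9 CPM in NHP1, 21.0 and 49.1 in the uninjected areas, 144 and 27.2 for hRPGR, and 43.9 and 146 for mScarlet (right, then left), and MZB1 at no more than 2.06 CPM in any library. Per 1000 JCHAIN UMIs these barcodes held 0 to 14.1 of MZB1. Barcodes of 10 to 100 UMIs gave another picture: JCHAIN was there at 26.2 and 79.3 CPM in NHP1, 59.3 and 74.5 in the uninjected areas, 756 and 78.6 for hRPGR, and 647 and 1596 for mScarlet. They held 4, 2 and 13 MZB1 UMIs beside 99, 56 and 220 of JCHAIN in the right hRPGR, right mScarlet and left mScarlet blebs, that is 40.4, 35.7 and 59.1 per 1000, in the range of the plasma-like cells, and 0 in the other 5 libraries, with 2 to 14 JCHAIN UMIs each.

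Whether rods had more JCHAIN than free RNA thus turned on these bounds. The 2 sets differ in size: barcodes of 10 to 100 UMIs held 76379 to 187881 UMIs per library, and those of 100 to 1000 held 20917730 to 42248373. Rods were higher than the barcodes of 100 to 1000 UMIs in 8 of 8 libraries, by 1.16 to 4.95 times, but higher than those of 10 to 100 in only 4 of 8. In the 3 blebs with many plasma-like cells the rod level lay below the 95% counting interval of the latter, and in the other 5 libraries within it. JCHAIN was higher in rods than in bipolar cells in 8 of 8 libraries, by 1.79 to 11.6 times, than in cones in 8 of 8, by 2.32 to 21.3 times, and than in amacrine cells in 8 of 8, by 2.21 to 12 times. Against Müller glia it was higher in 6 of 8 libraries, and in 8 of 8 once cells with 20 or more JCHAIN UMIs were left out of the glia, by 3.38 to 11.6 times. The part that free RNA has in the rod counts was not tested, and reads of a rod transcript assigned to JCHAIN could not be examined from count tables.

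**Figure D5:**
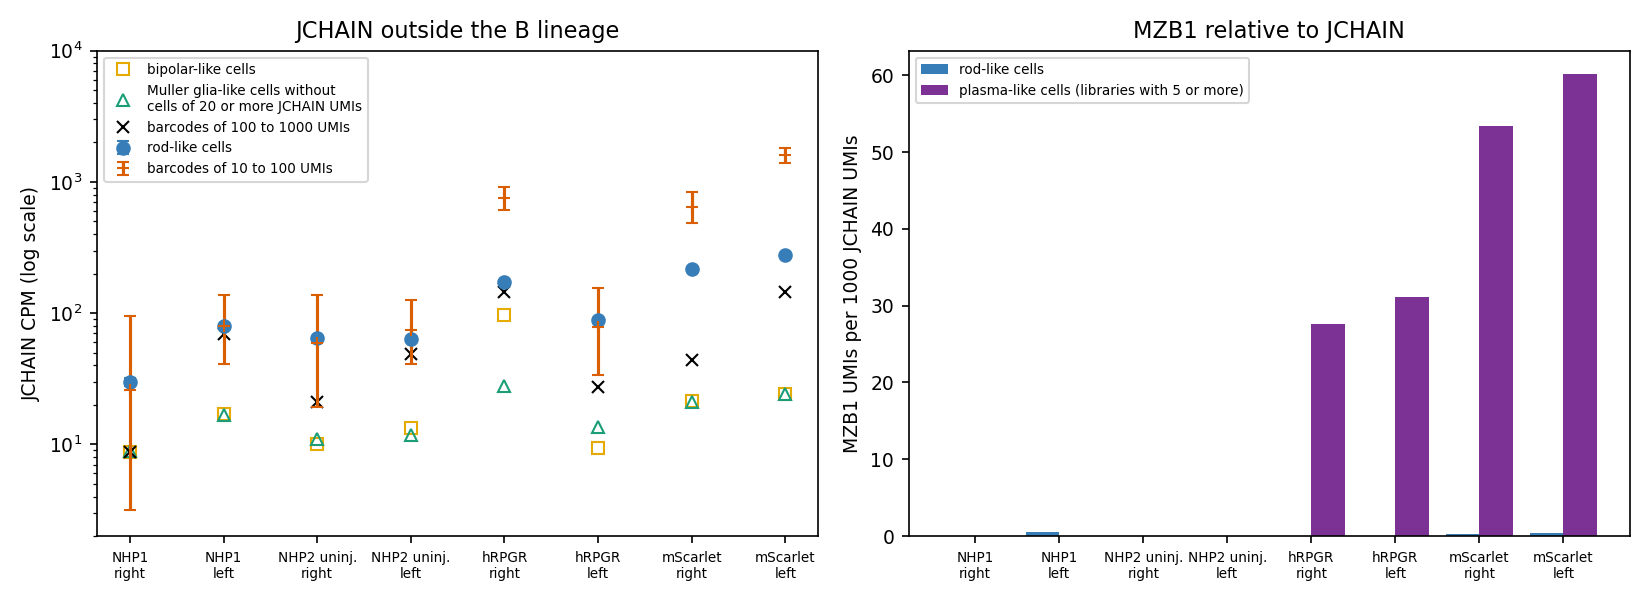
Left, JCHAIN level (CPM) in rods (with 95% counting intervals), bipolar cells, Müller glia without cells of 20 or more JCHAIN UMIs, barcodes of 100 to 1000 UMIs and barcodes of 10 to 100 UMIs (with 95% counting intervals), for each library, on a log axis. Right, MZB1 UMIs per 1000 JCHAIN UMIs in rods and, where a library held at least 5, in plasma-like cells. Rods run from 29.9 to 277 CPM and lie above the bipolar cells, the glia and the barcodes of 100 to 1000 UMIs in every library, but below those of 10 to 100 UMIs in 4 of 8, with a ratio of 0 to 0.561 against 27.6 to 60.2 in plasma-like cells.

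The vector blebs of NHP2 were compared with the uninjected areas of the same animal in 4 classes outside the B lineage: rods, Müller glia, myeloid-like and T/NK-like cells. UMIs were summed per library and class and tested with edgeR's quasi-likelihood test, with Benjamini-Hochberg adjustment over all genes tested. The 2 comparisons of a class share the uninjected libraries. The genes were chosen with JCHAIN counts outside the B lineage in view, so JCHAIN is given there as a description with no test, and the tests of the other 9 are no independent evidence. Not all of the 9 had enough counts in each class, and SDC1, TNFRSF17 and MS4A1 were tested in none. Of those tested, none was called at an adjusted p under 0.05 in any of the 8 comparisons, in which 0% to 0.64% of all genes were called. A fit that leaves out a library of a group takes the spread of the lone library from the other groups.

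In rods of the mScarlet blebs JCHAIN was at 248 CPM against 63.8 in the uninjected areas, a log2 difference of 1.90. Of the other 9 genes 3 had enough counts to be tested, with 0.64% of all 14531 genes called. All 3 had an unadjusted p under 0.05, as had 22.5% of all genes tested (3268 of 14531), and a higher level in the blebs. They were called by DESeq2, which called 9.74% of all genes, and by edgeR without its filter on low counts (6.22% called), and without either hRPGR library edgeR called PRDM1 (2.72% and 2.66% of genes called). Without the right uninjected area, the library with coRPGR counts, edgeR called none of the 3 and 22.1% of all genes, and without the right mScarlet bleb none of the 3 and 0.0196% of all genes.

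PRDM1 differed by 1.61 (SE 0.36, edgeR quasi-likelihood adjusted p = 0.0867), with 2.70 and 5.34 CPM in the uninjected areas and 11 and 14.2 in the blebs. In barcodes of 100 to 1000 UMIs it was at 2.45 and 5.12 against 5.91 and 8.37 CPM, so free RNA moved in the same direction. DERL3 differed by 1.92 (SE 0.54, adjusted p = 0.115), with 0.893 and 1.17 against 2.70 and 5.40 CPM, and it too was higher in the free RNA of the blebs, at 0.497 and 1.22 against 1.67 and 3.20 CPM. In barcodes of 10 to 100 UMIs, 0 and 3 PRDM1 UMIs were counted in the uninjected areas and 2 and 8 in the mScarlet blebs, and for DERL3 0 and 0 against 1 and 11. XBP1 differed by 0.65 (SE 0.15, edgeR quasi-likelihood adjusted p = 0.0867), with 21.7 and 26.7 against 33.7 and 44.9 CPM in rods. In barcodes of 100 to 1000 UMIs it was at 9.91 and 32.4 against 9.78 and 15.9 CPM. Those of 10 to 100 UMIs had 11.9 and 53.2 against 23.1 and 72.5 CPM, from 1 and 10 against 2 and 10 UMIs. The part that free RNA has in these differences was not tested.

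In rods of the hRPGR blebs, where 0% of genes were called, the log2 difference of JCHAIN was 1.03, and 0.51 without the right hRPGR bleb. None of the other 3 had an unadjusted p under 0.05 (474 of 14531 genes had one), and none was called by DESeq2, which called 0.42% of genes, or by the unfiltered edgeR fit (0.564%).

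In myeloid-like cells PRDM1 was at 42.1 and 88.9 CPM in the uninjected areas, 141 and 94.2 with hRPGR, and 151 and 147 with mScarlet. The difference for mScarlet was 1.27 on the log2 scale (SE 0.32, edgeR adjusted p = 0.119), where 0.326% of 10443 genes were called. PRDM1 had an unadjusted p under 0.05 both for mScarlet, as had 15.5% of all genes, and for hRPGR, as had 6.62% of all genes and where 0% were called. DESeq2 called PRDM1 for mScarlet (2.99% of genes called) and none of those tested among the 9 genes for hRPGR (0.144%). The unfiltered edgeR fit called PRDM1 for mScarlet (5.39% of genes called) and not for hRPGR (1.08%), and it was not called without the right mScarlet bleb (0.4%). CD79A had 0 UMIs in the myeloid-like cells of both uninjected areas, 10 and 11 with hRPGR and 28 and 28 with mScarlet, so it passed the filter on low counts only through the blebs and is given with no test.

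In Müller glia PRDM1 had an unadjusted p under 0.05 for mScarlet, as had 14.5% of all genes, where 0.168% were called, and not for hRPGR (3.57% of all genes), where 0.00765% were called. MZB1 passed the filter there only through the blebs, with 0 and 1 UMIs in the uninjected areas, 20 and 1 with hRPGR, and 0 and 138 with mScarlet, most of the 138 in the 2 cells described above, and it is given with no test. In T/NK-like cells 3 were tested, PRDM1, IRF4 and XBP1. None had an unadjusted p under 0.05 for mScarlet (10.2% of all genes had one and 0.0168% were called) and 1 had it for hRPGR (6.00% and 0.0336%), XBP1, which was lower in the blebs by a log2 difference of -1.07. In T/NK-like cells for mScarlet none of the 3 was called by the unfiltered edgeR fit (1.09% of genes called) or without the right mScarlet bleb (0.215%), and DESeq2 called none of the 9 genes in Müller glia (3.28% of genes called for mScarlet and 0.237% for hRPGR) or T/NK-like cells (0.168% and 0.0672%).

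The program around the 10 genes was followed through 4 lists. Of 30 genes of endoplasmic reticulum folding and the unfolded protein response, 27 were higher in plasma-like than in B-like cells, with a median log2 difference of 1.5, against 1119 of 10105 features and a median of -1.38 over all features at 5 CPM or more in either class. The chaperone HSP90B1 stood at 2160 against 345 CPM, SSR4, a subunit of the translocon-associated complex, at 1262 against 214, HERPUD1, a factor of endoplasmic reticulum-associated degradation, at 1120 against 194, the chaperone HSPA5 (BiP) at 645 against 218 and SEC61B, a subunit of the translocation channel, at 644 against 177. Of 18 genes of B cell identity and receptor signaling, 0 were higher in plasma-like cells, with a median of -4.39, but 14 of them had served to name B-like cells, so their direction follows from the naming. The tetraspanin CD37 stood at 1408 CPM in B-like and 61.6 in plasma-like cells, and the receptor chain CD79B at 450 and 36.1.

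Of 13 plasma cell partner genes in the files, 9 had served to name plasma-like cells, so their levels only describe that class. In all 7 were higher in plasma-like cells (median 0.03), among them SEC11C of the signal peptidase complex (438 against 122 CPM), the kinase PIM2 (199 against 25.1), the coactivator POU2AF1 (159 against 92.2) and SLAMF7 (148 against 16.8). EAF2 was near equal at 313 and 306 CPM and TNFRSF13B (TACI) was lower, at 109 against 384. Of 17 survival and homing genes, 2 were higher, with a median log2 difference of -1.26. That is near the 1119 of 10105 and the median of -1.38 over all features, so the list as a whole did not stand apart. The chemokine receptors CXCR4, CCR7 and CXCR5 stood at 394, 254 and 235 CPM in B-like cells and at 26.0, 0.904 and 1.27 in plasma-like cells, and CD40 at 250 and 12.7 CPM.

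In the comparisons of blebs with uninjected areas outside the B lineage, 4 genes of these lists were called by edgeR, all higher in the blebs. For mScarlet these were 1 of 47 listed features tested in rods, where 0.64% of all genes were called, 2 of 55 in myeloid-like cells (0.326%) and 1 of 42 in T/NK-like cells (0.0168%), and for hRPGR 1 of 42 in T/NK-like cells (0.0336%), with 0 of 47 to 55 in the other 4 comparisons. BCL6, a repressor known from germinal center B cells, was higher in rods of the mScarlet blebs, 68.4 ± 0.610 against 25.3 ± 4.82 CPM (SD, n = 2 eyes, adjusted p = 0.0379), and lost the call with the eye as a block (0.0811) and without the left uninjected area (0.142), the right mScarlet bleb (0.122) or the left (0.201). SLAMF7 was higher in myeloid-like cells of the mScarlet blebs, 47.7 against 1.11 CPM. At that low level in the uninjected areas it passed the filter on low counts only through the blebs. Its call, which was lost with the eye as a block, is no evidence, and it is given with no test. CD38 was at 0 in myeloid-like cells of both uninjected areas, so it passed the filter on low counts only through the blebs. Its call is no evidence, and it is given with no test. Against a floor of 3 counts over the group it was at least 8.31-fold higher in the mScarlet blebs. CXCL13, the chemokine that draws B cells through CXCR5, was at 0 in T/NK-like cells of both uninjected areas (23 and 33 cells). The mScarlet blebs had 316 ± 53.9 CPM (at least 22.6-fold higher) and the hRPGR blebs 231 ± 79.6 (at least 16.5-fold). As CXCL13 passed the filter only through the blebs, it is likewise given with no test, and its calls are no evidence.

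Over 82 sums of a class in a library with at least 10 cells, the genes with patterns most like those of 5 of the 10 were named by the correlation of log2(CPM + 1) among 15308 genes. The sums share libraries and the plasma-like cells stand far from the rest, so these values are descriptions. For MZB1 the closest with a symbol were POU2AF1 (r = 0.95) and TNFRSF17 (0.94), for CD79A POU2AF1 (0.93), CD79B (0.93) and TNFRSF13B (0.92), and for MS4A1 SIGLEC10 (0.97) and CD1C (0.95). XBP1 was closest to ARF3 (0.81) and to CRELD2 (0.80) and MANF (0.80), both of the unfolded protein response. The 3 features closest to JCHAIN had no symbol in the files and reached 0.84, 0.80 and 0.79, below the values of MZB1, CD79A and MS4A1.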

How the data were processed

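Single-cell RNA-seq (5′ v2 kit) had been run on 8 retinal punches of 2 macaques. The deposited files give UMI counts for each feature in each barcode, from Cell Ranger 8.0.1 as run by the authors against the rhesus genome Mmul_10 with added vector transgenes; they hold every barcode, before the authors' removal of ambient RNA and doublets. Groups, eyes and animals came from the sample labels.

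A cell was a barcode of 1500 or more UMIs and 300 or more genes with no more than 20% of UMIs mitochondrial (91796 in all), and 8604 (9.37%) with the highest simulated-doublet scores, at 0.8% per 1000 cells, were removed. Cells were clustered with scanpy 1.11.5 (Python 3.11.15) on 3000 variable genes without the 10 genes described, 40 principal components and 15 neighbors at resolution 2, and clusters with PTPRC at 20 CPM or more were clustered again on 2000 genes. Of 94 clusters, 73 were named from marker lists (at least 3 markers raised and at least 0.5 of the list, and a mean log2 score of at least 1 and 0.5 above the next class), by a rule set after the clusters had been seen; 11 of 23 listed plasma cell markers and 14 B cell markers were in the files. Rebuilt names can differ from those of the study.

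UMIs summed per library and class were tested with edgeR 4.0.16 (R 4.3.3; TMM, filterByExpr, quasi-likelihood F test) over the 6 NHP2 libraries in 1 fit, and with DESeq2 1.42.0 as an alternative. An SE of a log2 difference is the size of that difference divided by the square root of F. The fit was tested on simulated counts. The genes and lists were chosen with earlier results of these data known. Genes named are the 10, the called genes of each list or else its 5 highest in B-lineage cells, named immunoglobulin constant genes, and the 3 nearest in pattern. Promoters are the 250 bases before RefSeq starts on Mmul_10. Same-numbered libraries are areas of 1 eye of NHP2, so they are paired by the labels; their right-minus-left deviations in rods correlated at -0.26, 0.13 and -0.25 over 14068 genes (uninjected with hRPGR, uninjected with mScarlet, hRPGR with mScarlet).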

Additional observations from a re-analysis of the deposited data

How the results depend on the processing

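The edgeR tests called none of those of the 10 genes that had enough counts, and the calls that appeared under other settings were these. They include JCHAIN, for which they are no evidence, since the genes were chosen for its counts outside the B lineage, and in myeloid-like cells CD79A, which had 0 UMIs in both uninjected areas. With a library left out, its group has 1 library, assumed to vary like the others. In rods for mScarlet, DESeq2 called 4 (9.74% of all genes called) and a fit without the filter on low counts 4 (6.22%). Calls of JCHAIN or PRDM1 also appeared in some fits with a library left out. In rods for hRPGR, DESeq2 (0.42%) and the unfiltered fit (0.564%) called 1 each, and no fit with a library left out called any. In myeloid-like cells for mScarlet, DESeq2 called 1 (2.99%), the unfiltered fit 3 (5.39%) and the fits with a library left out 0 to 1 (JCHAIN without the right mScarlet bleb, 0.4%), and for hRPGR the unfiltered fit called 1 (1.08%). In T/NK-like cells for mScarlet, the unfiltered fit called 1 (1.09%) and the fits with a library left out 0 to 1 (JCHAIN without the right mScarlet bleb, 0.215%, where 1 cell of the left bleb held 1494 of 1538 UMIs). The causes of these changes were not tested.

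With the eye as a replicate block, which the labels' pairing allows, none of those tested among the 10 genes was called in any comparison. No call on them changed. JCHAIN in rods for mScarlet then differed by 1.92 on the log2 scale. The block took the number of all genes called for mScarlet from 93 to 29 in rods, from 22 to 6 in Müller glia, from 34 to 5 in myeloid-like and from 1 to 9 in T/NK-like cells, and for hRPGR from 0 to 2 in myeloid-like and from 2 to 5 in T/NK-like cells.

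Leaving out 1 eye at a time left each group with the other eye's share of plasma-like cells, 0 to 0.0302% in NHP1, 0.0106 to 0.0275% in the uninjected areas, 0.0538 to 0.687% in the hRPGR blebs and 0.963 to 2.44% in the mScarlet blebs. For B-like cells these were 0 to 0, 0 to 0.00915, 0.0108 to 0.0881 and 0.374 to 0.566%, and the share of the 10 genes' UMIs held by both classes ran from 0 to 5.76, 12.3 to 21.0, 16.1 to 83.7 and 79.6 to 87.9%. The mean B-like share of NHP1, 0 as reported, was 0.00581% with cells of 800 or more UMIs and 0.00332% with doublets kept. Keeping doublets also took it from 0.00458% to 0.00827% in the uninjected areas of NHP2 and the left hRPGR bleb from 1 to 4 B-like cells (0.0108% to 0.0395%), and the lower UMI minimum took that bleb to 2. With the 10 genes kept for clustering, the right hRPGR bleb held 112 plasma-like cells (0.987%) in place of 78. The right mScarlet bleb then held 88 (0.996%), so the shares of these libraries came close and their order depends on the naming of cells. Free RNA depended on its bounds: barcodes of 10 to 100 UMIs held 756 CPM of JCHAIN in the right hRPGR bleb and 1596 in the left mScarlet bleb, against 144 and 146 in barcodes of 100 to 1000, and JCHAIN in rods exceeded the former in 4 of 8 libraries and the latter in 8 of 8. Libraries with 1 to 5 plasma-like cells give little precision on any level. Leaving out cells with 20 or more JCHAIN UMIs was an alternative chosen after the data had been seen.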

Other observations

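Some cells that met no class also carried the secretory transcripts. An unnamed cluster of 37 cells, 36 of them from the right hRPGR bleb, had 18074 CPM of JCHAIN and 627 of MZB1 at a median of 2629 UMIs per cell, and another of 89 cells, 88 of them from the same library, had 7507 CPM of JCHAIN and 214 of MZB1 at a median of 2830 UMIs. A cluster of 59 cells, all from that library, had 1923 CPM of JCHAIN and 174 of MZB1. A cluster of 23 cells spread over 7 libraries, with a median of 19354 UMIs and near-equal plasma cell and myeloid scores, had 14195 CPM of JCHAIN and 798 of MZB1. Among the unnamed cells of the right hRPGR bleb, 37 cells with 20 or more JCHAIN UMIs held 4128 of 8154, and in the left mScarlet bleb 6 cells held 4671 of 6137.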
